A study of Homo sapiens with 12 samples.

Results

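The anti-CD30 monoclonal antibody T104 was compared with a recombinant form of the natural CD30 ligand (CD153 fused to Fc, CD30L-Fc) in L540 cells, a Hodgkin lymphoma line that carries CD30. The comparison took the 2 arrays of T104-treated cells and the 2 arrays of CD30L-Fc-treated cells, and its members were all probes with 1 annotated gene that were detected (detection p below 0.01) on both arrays of either treatment. These were 9730 of the 11949 probes tested and of the 48780 on the Illumina HumanHT-12 v3 array, and they stood for 7696 genes. Both arrays detected 9392 annotated probes after T104 and 9605 after CD30L-Fc, and 9267 were detected on both arrays of each.

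The series held 12 arrays, 2 biological duplicates for each of 6 conditions. One condition was untreated, and the others were CD30L-Fc and the monoclonal antibodies to CD30 named T104, T427, T408 and PW30. Every treated culture was of the same line, precultured for 16 h and then given 10 µg/ml of its agent. The sample labels state 24 h of treatment, whereas the series text states 8 h and calls those labels wrong. The untreated cells carried no added agent, and the sources used here do not say whether they received a carrier. L540 is 1 line, so the arrays say nothing of other CD30-positive cells.

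CD30, encoded by TNFRSF8, is a receptor of the TNF receptor superfamily on activated lymphocytes and on Hodgkin and Reed-Sternberg cells. It has no death domain. Trimeric ligand or cross-linking antibody clusters the receptor, its tail recruits TRAF adaptors, and the IKK complexes and NIK then release NF-kB subunits that switch on chemokine, cytokine and survival genes together with the pathway's own inhibitors. An antibody that imitates the ligand in this way is called an agonist.

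The direct difference was tested first. No probe passed between T104 and CD30L-Fc in limma's moderated test with Benjamini-Hochberg adjustment over 11949 probes (0 called, 0% of those tested). At an unadjusted p below 0.05 there were 445 probes, 3.72% of those tested, and among the members 332 of 9730 probes. The smallest adjusted p of a member was 0.259 (limma). The miss does not show that the agents act alike, so each difference below carries its 95% interval from the same fit, and the results are read by how far that interval reaches. Unless stated otherwise a difference is T104 minus CD30L-Fc on the log2 scale of the normalised signal, from the brightest member probe of a gene.

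Several genes that rise under NF-kB served as the clearest gauge of receptor response, and their promoters are shown for that reason. Of the 20 members with the largest rise in PW30 over untreated that have a promoter entry, 6 held a match to the kB consensus in the 250 bases before the start, as did 3498 of 35116 RefSeq promoters (9.961%). The first 5 of the 6 by size of the PW30 rise are printed 5′ to 3′ on the gene's strand from RefSeq (GRCh38.p14), with kB matches on either strand in capitals. TNFRSF9 lies on the minus strand at chr1:7940840-7941089, EBI3 on the plus strand at chr19:4229273-4229522, and TNFAIP3 on the plus strand at chr6:137867009-137867258. NFKBIA lies on the minus strand at chr14:35404750-35404999 and CXCL10 on the minus strand at chr4:76023498-76023747. Overlapping matches on opposite strands are joined in 1 run of capitals, in TNFRSF9 and at the second run of CXCL10. A match is a description of the letters and not a binding site. The AP-1 motif TGANTCA was found in 2 of the 20 and in 6.573% of all promoters.
TNFRSF9: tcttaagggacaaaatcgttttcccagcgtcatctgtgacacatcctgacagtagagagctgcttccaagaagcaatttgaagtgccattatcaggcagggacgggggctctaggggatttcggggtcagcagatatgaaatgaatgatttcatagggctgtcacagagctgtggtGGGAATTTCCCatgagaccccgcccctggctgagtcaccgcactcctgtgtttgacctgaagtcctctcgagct
EBI3: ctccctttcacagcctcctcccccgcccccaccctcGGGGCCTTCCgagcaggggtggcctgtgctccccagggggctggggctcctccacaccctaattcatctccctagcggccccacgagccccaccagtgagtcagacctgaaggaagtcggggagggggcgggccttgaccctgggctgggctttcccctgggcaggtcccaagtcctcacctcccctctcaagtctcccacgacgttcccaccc
TNFAIP3: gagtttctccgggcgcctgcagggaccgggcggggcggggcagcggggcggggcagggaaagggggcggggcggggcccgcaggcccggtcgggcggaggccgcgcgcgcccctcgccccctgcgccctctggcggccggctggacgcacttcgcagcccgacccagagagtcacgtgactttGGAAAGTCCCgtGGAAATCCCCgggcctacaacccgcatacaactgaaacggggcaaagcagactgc
NFKBIA: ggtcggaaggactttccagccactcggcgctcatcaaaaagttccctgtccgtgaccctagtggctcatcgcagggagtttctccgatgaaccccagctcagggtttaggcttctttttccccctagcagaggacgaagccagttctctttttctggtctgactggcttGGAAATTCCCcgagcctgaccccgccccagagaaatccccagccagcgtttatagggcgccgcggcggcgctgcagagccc
CXCL10: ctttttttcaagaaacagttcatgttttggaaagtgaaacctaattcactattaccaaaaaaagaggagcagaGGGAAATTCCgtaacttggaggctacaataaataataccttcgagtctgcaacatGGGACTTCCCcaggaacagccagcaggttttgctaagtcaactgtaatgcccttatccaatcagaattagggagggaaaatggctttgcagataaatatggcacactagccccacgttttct

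The 4 arrays lay as close across treatments as duplicates did within one. Over the 7696 genes the log2 differences between the CD30L-Fc duplicates had an SD of 0.216, and those between the T104 duplicates an SD of 0.213. The 4 pairs made of 1 T104 and 1 CD30L-Fc array had SDs of 0.214 to 0.223. Against untreated arrays the SDs were 0.404 to 0.413 for CD30L-Fc and 0.416 to 0.426 for T104, and against PW30 arrays 0.272 to 0.292 and 0.266 to 0.299. At least 2-fold differences were seen for 4 genes between the CD30L-Fc duplicates and for 6 between the T104 duplicates. Across the 2 treatments a pair of arrays had 6 to 14 such genes, and against untreated arrays 204 to 236.

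**Figure D1:**
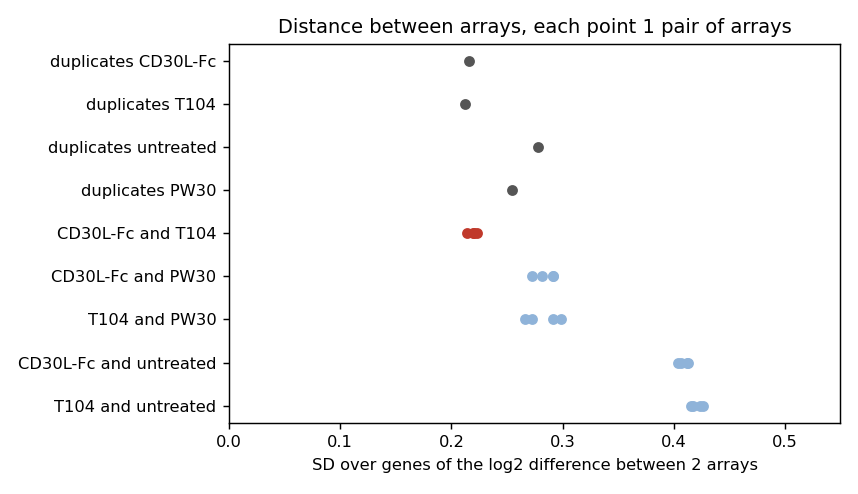
SD over 7696 genes of the log2 difference between 2 arrays, with each point 1 pair of arrays and the kinds of pair on the vertical axis. The 4 pairs of a CD30L-Fc and a T104 array sit between 0.214 and 0.223, beside the duplicates at 0.216 and 0.213, and pairs of a treated with an untreated array sit between 0.404 and 0.426 for these agents.

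Averaged by treatment, the 7696 genes had a median difference of -0.01 and an SD of 0.159. T104 gave the higher mean for 3669 of them, the count to set beside those for smaller groups of genes below. The central 95% of the genes ran from -0.33 to 0.31. A single gene, SDHAF4, had means at least 2-fold apart, and 39 genes (0.507%) had means at least 1.5-fold apart. The interval lay wholly within a 2-fold difference in either direction for 7629 genes (99.1%) and within 1.5-fold for 6455 (83.9%). It left out 0 for 230 genes, 2.99% of the members.

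How tight a limit could be set depended on the level of a gene. In the dimmest quartile of the genes the median half-width of the interval was 0.395, and 1108 of 1924 genes (57.6%) had an interval within 1.5-fold. The next quartiles gave 86.1%, 94.9% and 96.9%, with half-widths of 0.329, 0.306 and 0.293. Of the 67 genes whose interval reached past 2-fold, 66 fell in the dimmest quartile, and every gene of the upper 2 quartiles stayed inside 2-fold.

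**Figure D2:**
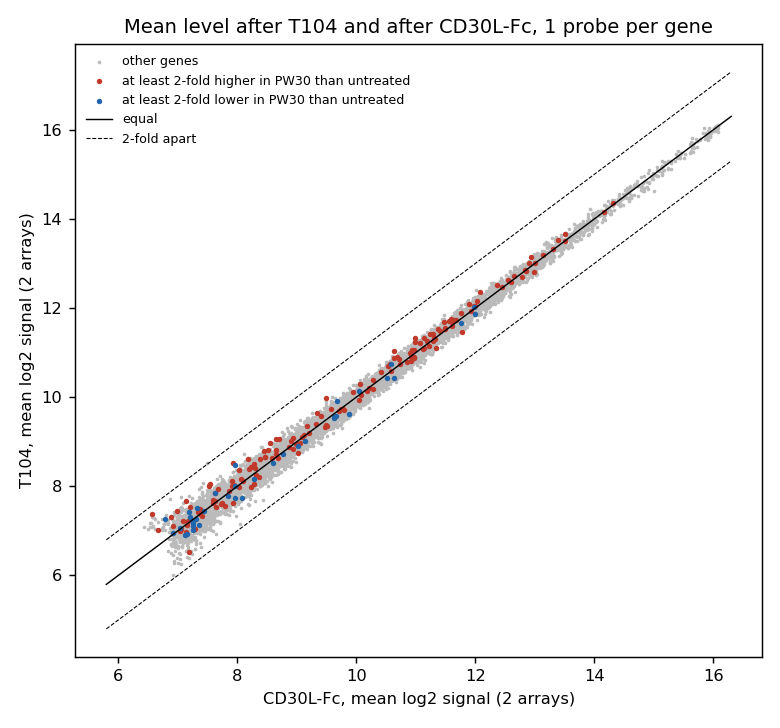
Mean log2 signal of each of 7696 genes after CD30L-Fc (horizontal) and after T104 (vertical), 2 arrays each, with genes at least 2-fold higher or lower in PW30 than in untreated cells in colour and 2-fold lines dashed. The coloured genes follow the line of equality at every level, and the cloud widens below a log2 signal of about 8.

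Detection alone set the arrays slightly apart. The probe of 61 genes was detected on neither T104 array, and that of 7 on neither CD30L-Fc array. For those genes only a bound can be stated, taken as the bright mean against the lowest signal detected on each dim array. The bound was above 1-fold for 48 of the genes in favour of CD30L-Fc and for 7 in favour of T104, and the largest were at least 1.41-fold for SPPL3 and at least 1.41-fold for CDIPT. Such a gene was a member only through the agent under which it was detected. The direction of its bound was therefore fixed by the choice of members. The 4 arrays detected 10910 to 11807 probes, with the lowest count on T104 replicate 2. Its part in the lopsided count was not tested.

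The genes most changed by CD30 were chosen from arrays outside the comparison, namely PW30 against untreated. Of 11949 probes, 246 were at least 2-fold higher there (2.06%) and 73 at least 2-fold lower (0.611%), at an adjusted p below 0.05. Among the members these were 164 genes raised and 38 lowered. After T104 157 of the 164 rose over untreated and after CD30L-Fc 155 did (limma, adjusted p below 0.05), where 5.36% and 4.95% of all probes tested did so. These 2 comparisons share the untreated arrays with each other and with the choice of the 164.

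Over the 164 raised genes the 4 treatment arrays had median changes over untreated of 1.33 and 1.40 for CD30L-Fc and 1.43 and 1.39 for T104. The treatments overlapped by this measure. T104 gave the higher mean for 109 of the 164, beside 3669 of all 7696 genes. The median difference was 0.07 against -0.01 over all genes. With array medians set equal in place of quantile normalisation, the median over the 164 was 0.02, and that over all genes was -0.07. All but 6 of the 164 had an interval within 2-fold, and 111 had one within 1.5-fold. The 6 were AMACR, CCL17, GDA, IGSF3, TNFRSF4 and ZFHX2, which are named because the limit left them out. The probe of each was detected on at most 1 of the untreated arrays.

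IGSF3 and AMACR had arrays that did not overlap between the treatments. With 2 arrays against 2, an exact permutation test cannot go below p = 0.333. Lack of overlap, here and below, is therefore only a description and no test of a difference. IGSF3, an immunoglobulin superfamily membrane protein, read 6.26 and 6.87 on the CD30L-Fc arrays and 7.54 and 7.21 on the T104 arrays. The difference was 0.81 with an interval from 0.27 to 1.35. The 6.26 on CD30L-Fc replicate 1 lay below the lowest detected signal of that array, 6.95. AMACR, a racemase of branched fatty acid oxidation, read 7.34 and 7.05 after CD30L-Fc and 6.36 and 6.69 after T104, where it was not detected on either array, so it was at least 1.19-fold higher after CD30L-Fc. The directions of the 2 genes were opposite, and neither passed the adjusted test. IGSF3 was a member only through T104 and AMACR only through CD30L-Fc, and this choice favoured the direction of each.

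The difference was also read along the range of the PW30 change. The 39 genes at least 2-fold lower in PW30, called or not, had a median of -0.07, the 4071 genes lower by up to 0.5 had -0.01, the 132 genes between 2-fold and 4-fold higher had 0.06, and the 32 genes more than 4-fold higher had 0.10. Over the 7696 genes the correlation of the difference with the PW30 change was 0.089, as a description of genes that share arrays, with no array in common between the 2 measures.

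Among the 38 lowered genes, 29 fell below untreated after T104 and 27 after CD30L-Fc, where 2.65% and 2.28% of all probes tested did so. The array medians were -0.99 and -0.97 for both treatments, and the intervals of all 38 lay within 2-fold, 23 of them within 1.5-fold. The median difference was -0.07, and it was 0.01 without CD30L-Fc replicate 1 and -0.14 under median scaling. Under that scaling the median over all genes was -0.07. GPR183, the oxysterol receptor that guides B cells within lymphoid tissue, fell by 1.73 after T104 and by 1.64 after CD30L-Fc (limma, adjusted p = 6.9e-06 and 1.2e-05). ARID5B, a DNA-binding cofactor, fell by 1.30 and 1.19 (limma, adjusted p = 7.7e-05 and 0.00016). The differences between the agents were -0.09 for GPR183, with an interval from -0.38 to 0.19, and -0.10 for ARID5B, from -0.39 to 0.18. Both genes are named for the size of their fall in PW30, a choice made after the values were seen.

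The receptor itself is read by 1 dim probe. TNFRSF8 read 7.60 and 7.33 on the untreated arrays, 7.43 and 7.34 after CD30L-Fc and 7.54 and 7.29 after T104. The treatments overlapped, and the difference was 0.03 with a wide interval from -0.67 to 0.73. TNFSF8, which encodes the ligand CD153, was not among the members.

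Closest to the receptor are the TRAF adaptors and the kinases. Of 27 genes on this list 22 were members, 12 were higher after T104, and the median difference was 0.02 against -0.01 over all genes. The farthest limit was 1.75-fold, and 17 of the 22 lay within 1.5-fold. Over untreated 8 were called higher after T104 and 6 after CD30L-Fc, and none lower. Of all 7696 genes, 433 were called higher and 196 lower after T104, and 412 and 172 after CD30L-Fc. Counts for the lists that follow are to be read beside these.

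TRAF1, a TRAF adaptor that is itself an NF-kB target, read 7.57 and 7.99 in untreated cells, 11.43 and 11.05 after CD30L-Fc and 11.35 and 11.49 after T104. The treated arrays overlapped at a level about 3.5 above untreated. The rise was 3.64 after T104 and 3.46 after CD30L-Fc (limma, adjusted p = 4.6e-07 and 8.4e-07), and the difference of 0.18 had an interval from -0.24 to 0.59. TANK, which binds TRAFs and the kinase TBK1, rose by 1.46 and 1.49 (limma, adjusted p = 4.8e-05 and 4.6e-05), with a difference of -0.03 and an interval from -0.33 to 0.28. A second TANK probe gave 0.51 from -0.09 to 1.12, past 2-fold. MAP3K5, the stress kinase ASK1, had the largest difference of the list at 0.36, from -0.04 to 0.77.

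**Figure D3:**
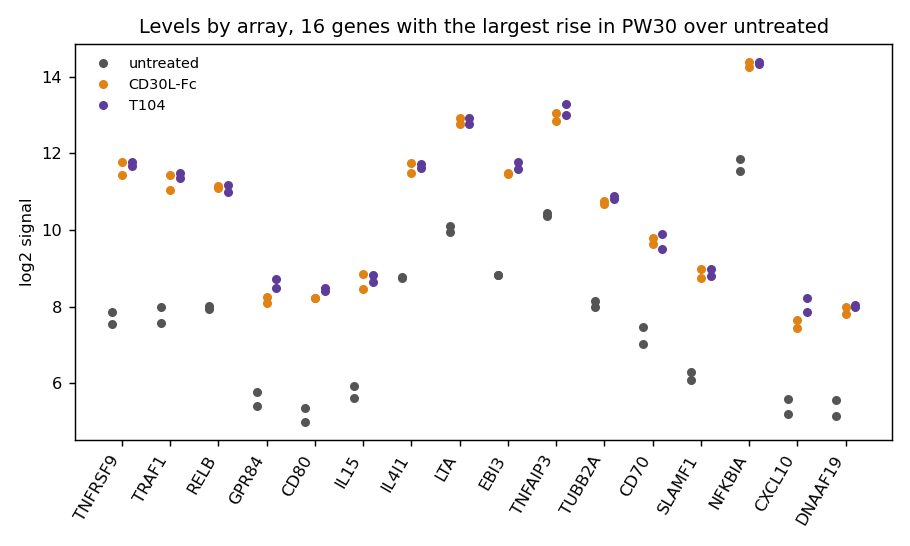
Log2 signal on each of the 2 untreated, 2 CD30L-Fc and 2 T104 arrays for the 16 members with the largest rise in PW30 over untreated, 1 probe per gene. CD30L-Fc and T104 points lie together well above the untreated points. The untreated points of GPR84, CD80, IL15, SLAMF1 and CXCL10 come from probes not detected there.

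Of the NF-kB subunits 4 of 5 were members, and 3 rose over untreated after each agent. Here and for the lists that follow, a count given for each agent is 1 number met by both, and does not say that the genes were the same. RELB, the partner of p52 in the alternative pathway, read 8.02 and 7.94 in untreated cells, 11.15 and 11.08 after CD30L-Fc and 10.99 and 11.16 after T104. The treated arrays overlapped. RELB rose by 3.09 after T104 and by 3.13 after CD30L-Fc (limma, adjusted p = 1e-07 and 1.3e-07), and the interval of its difference, from -0.30 to 0.21, is among the tight ones. NFKB2, the precursor of p52, read 8.73 and 8.97, then 11.06 and 11.21 after CD30L-Fc and 11.14 and 11.08 after T104, a difference of -0.02 from -0.31 to 0.27. NFKB1, the precursor of p50, rose by 0.79 after T104 and by 0.75 after CD30L-Fc (limma, adjusted p = 0.0025 and 0.0043), with a difference of 0.05 from -0.24 to 0.34.

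RELA, the main activating subunit of the classical pathway, was not called over untreated. It read 9.24 and 9.13 in untreated cells, 9.80 and 9.63 after CD30L-Fc and 9.36 and 9.39 after T104. All arrays of CD30L-Fc lay above those of T104, with a difference of -0.34 from -0.68 to 0.00. Neither the difference nor the change over untreated passed the test (limma, adjusted p = 0.56 for T104 and 0.068 for CD30L-Fc against untreated).

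The inhibitors and feedback regulators that NF-kB switches on counted 16 members of 20 listed. Over untreated 10 rose and 1 fell after T104, and 9 rose and 1 fell after CD30L-Fc. Between the agents 10 were higher after T104, the median was 0.05, and 14 of the 16 intervals lay within 1.5-fold.

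NFKBIA, the inhibitor IkBα, read 11.55 and 11.85 in untreated cells, 14.38 and 14.26 after CD30L-Fc and 14.38 and 14.34 after T104. Its treated arrays overlapped, with a difference of 0.04 from -0.25 to 0.32. TNFAIP3, the ubiquitin-editing inhibitor A20, read 10.36 and 10.44, then 12.84 and 13.05 after CD30L-Fc and 13.29 and 12.99 after T104. These arrays overlapped as well, and the difference was 0.20 from -0.11 to 0.51. NFKBIE, another IkB protein, rose by 1.96 after T104 and by 1.78 after CD30L-Fc (limma, adjusted p = 5.5e-06 and 1.2e-05).

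NFKBIZ, an atypical nuclear IkB protein, rose by 1.97 and 1.91 (limma, adjusted p = 2.6e-06 and 3.6e-06). CYLD, a deubiquitinase that restrains the pathway, rose by 1.38 and 1.46 (limma, adjusted p = 0.0016 and 0.0011), and BCL3, an IkB family coactivator, by 0.91 and 0.84 (limma, adjusted p = 0.00078 and 0.0014). The intervals of these differences reached at most 0.55 in either direction. NKIRAS2, which slows IkB decay, gave the farthest limit of the list at 1.83-fold, with a difference of -0.36 that was -0.10 without CD30L-Fc replicate 1.

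The TNF receptor superfamily, with 8 members of 23, holds the gene with the largest PW30 rise. TNFRSF9, the costimulatory receptor 4-1BB, read 7.87 and 7.55 in untreated cells, 11.43 and 11.78 after CD30L-Fc and 11.78 and 11.68 after T104. Its treated arrays overlapped, and the rise was 4.02 after T104 and 3.90 after CD30L-Fc (limma, adjusted p = 1e-07 and 1.4e-07). The difference of 0.12 had an interval from -0.22 to 0.46. FAS, the death receptor, rose by 1.51 and 1.56 (limma, adjusted p = 0.00065 and 0.00057), with a difference of -0.04 from -0.49 to 0.40.

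TNFRSF4, the costimulatory receptor OX40, read 6.67 and 7.49 in untreated cells, 8.20 and 7.65 after CD30L-Fc and 8.67 and 8.36 after T104. The T104 arrays lay above both CD30L-Fc arrays by a margin smaller than the gap between the CD30L-Fc duplicates, and without CD30L-Fc replicate 2 the difference fell from 0.59 to 0.32. Its interval ran from -0.01 to 1.19, and it was the 1 receptor of the 8 measured whose interval reached past 2-fold. Half-widths on this list were wide, with a median of 0.431, and 4 of 8 intervals lay within 1.5-fold.

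Among the TNF superfamily ligands 8 of 16 were members and 5 rose after each agent. LTA, which encodes lymphotoxin alpha, read 9.95 and 10.10 in untreated cells, 12.92 and 12.78 after CD30L-Fc and 12.91 and 12.75 after T104. The treated arrays overlapped almost completely, with a difference of -0.01 from -0.29 to 0.26. CD70, the ligand of CD27, rose by 2.46 after T104 and by 2.47 after CD30L-Fc (limma, adjusted p = 2.2e-05 and 2.3e-05), with an interval from -0.48 to 0.45.

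TNF itself rose by 1.99 and 1.86 (limma, adjusted p = 6.4e-05 and 0.00013), and TNFSF10, the death ligand TRAIL, by 1.40 and 1.16 (limma, adjusted p = 0.00021 and 0.00079). TNFSF10 had the largest difference of these ligands at 0.23, from -0.12 to 0.59, and 0.02 without CD30L-Fc replicate 2. The farthest limit of the list was 1.52-fold.

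Chemokines were the function with the largest median, 0.50, from only 3 members of 19 listed. CXCL10, which draws cells that carry CXCR3, read 7.45 and 7.65 after CD30L-Fc and 7.87 and 8.23 after T104, and was not detected in untreated cells. The treatments did not overlap, and the difference was 0.50 with an interval from 0.11 to 0.89 and a limma adjusted p of 1. Without T104 replicate 2 it was 0.32. CXCL10 was at least 2.15-fold higher than untreated after T104 and at least 1.52-fold higher after CD30L-Fc.

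CCL17, the Hodgkin cell chemokine TARC, read 7.39 and 6.90 after CD30L-Fc and 7.50 and 7.83 after T104, again above undetected untreated arrays. These did not overlap either, with a difference of 0.52 from -0.00 to 1.03, and without CD30L-Fc replicate 2 it was 0.28. CCL5, a chemokine for T cells and monocytes, read 11.24 and 11.29 in untreated cells, 12.64 and 12.47 after CD30L-Fc and 12.69 and 12.57 after T104. It was bright, its treated arrays overlapped, and the difference of 0.07 had an interval from -0.20 to 0.34.

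Receptors for chemokines and other guidance cues gave 10 members of 26, of which 4 rose and 2 fell over untreated after each agent. CXCR4, the receptor of CXCL12, rose by 1.82 after T104 and by 1.80 after CD30L-Fc (limma, adjusted p = 4.2e-05 and 5e-05), with a difference of 0.01 from -0.36 to 0.39. GPR132, a proton- and lipid-sensing receptor, rose by 2.04 and 1.92 (limma, adjusted p = 6e-06 and 1.2e-05). GPR84, which senses fatty acids of medium chain length, read 8.25 and 8.10 after CD30L-Fc and 8.73 and 8.49 after T104, without overlap and with a difference of 0.44 from -0.01 to 0.88.

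Cytokines and growth factors had 11 members of 37 with a median of 0.08, which was 0.18 without CD30L-Fc replicate 1, 0.17 without T104 replicate 1 and 0.00 without CD30L-Fc replicate 2. EBI3, the shared subunit of IL-27 and IL-35, read 8.82 and 8.82 in untreated cells, 11.45 and 11.48 after CD30L-Fc and 11.59 and 11.78 after T104. The arrays of the agents did not overlap, yet the difference of 0.22 had an interval across 0, from -0.10 to 0.53, and was 0.12 without T104 replicate 2. IL15, a growth factor for NK and memory T cells, read 8.85 and 8.45 after CD30L-Fc and 8.63 and 8.82 after T104, with a difference of 0.08 from -0.37 to 0.52.

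Cytokine receptors gave 19 of 38, with a median of 0.00 and 15 intervals within 1.5-fold. IL21R, the receptor of IL-21, read 10.31 and 10.49 in untreated cells, 11.65 and 11.92 after CD30L-Fc and 11.52 and 11.43 after T104. Here CD30L-Fc lay above T104 without overlap, by a difference of -0.31 from -0.61 to -0.01 that did not pass adjustment (limma, adjusted p = 1). Without CD30L-Fc replicate 2 it was -0.17, and a second IL21R probe had the opposite sign, 0.39 from -0.07 to 0.84. IL7R, the receptor of IL-7, fell by 0.81 after T104 and by 0.80 after CD30L-Fc (limma, adjusted p = 0.0014 and 0.0016), with a difference of -0.01 from -0.28 to 0.26.

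Costimulatory, checkpoint and activation molecules gave 10 members of 30, all with intervals within 1.5-fold, and a farthest limit of 1.49-fold. After each agent 6 of them rose. CD83, a maturation marker of antigen-presenting cells, read 9.61 and 9.70 in untreated cells, 11.92 and 11.94 after CD30L-Fc and 11.90 and 11.99 after T104. The 4 treated arrays spanned 0.09, and the difference was 0.02 from -0.24 to 0.27. A second CD83 probe gave 0.37 from 0.00 to 0.74.

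CD80, a ligand of CD28 and CTLA-4, read 8.23 and 8.24 after CD30L-Fc and 8.48 and 8.40 after T104. It was undetected in untreated cells, and was at least 2.82-fold higher after T104 and at least 2.44-fold higher after CD30L-Fc. SLAMF1, a self-ligand of lymphocytes, was at least 3.85-fold and 3.78-fold higher, respectively. Their differences were 0.21 for CD80, from -0.15 to 0.58, and 0.03 for SLAMF1, from -0.42 to 0.47.

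Of the adhesion molecules and integrins 16 of 36 were members, of which 1 rose and 1 fell after T104, and 2 rose and 1 fell after CD30L-Fc. CD93, a C-type lectin-like adhesion molecule, fell from 8.88 and 8.79 in untreated cells to 6.99 and 6.58 after CD30L-Fc and to 7.11 and 7.44 after T104 (limma, adjusted p = 1.9e-05 and 0.00015). The treated arrays did not overlap, and CD93 lay higher after T104 by 0.49, from 0.11 to 0.87 (limma, adjusted p = 1), and by 0.29 without CD30L-Fc replicate 2. CD93 was detected on only 1 of the 2 CD30L-Fc arrays, so it was a member only through T104, and this choice favoured the direction of its difference. NINJ1, a membrane protein of adhesion and lytic cell rupture, rose by 0.91 after T104 and by 0.78 after CD30L-Fc (limma, adjusted p = 0.0014 and 0.0043).

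**Figure D4:**
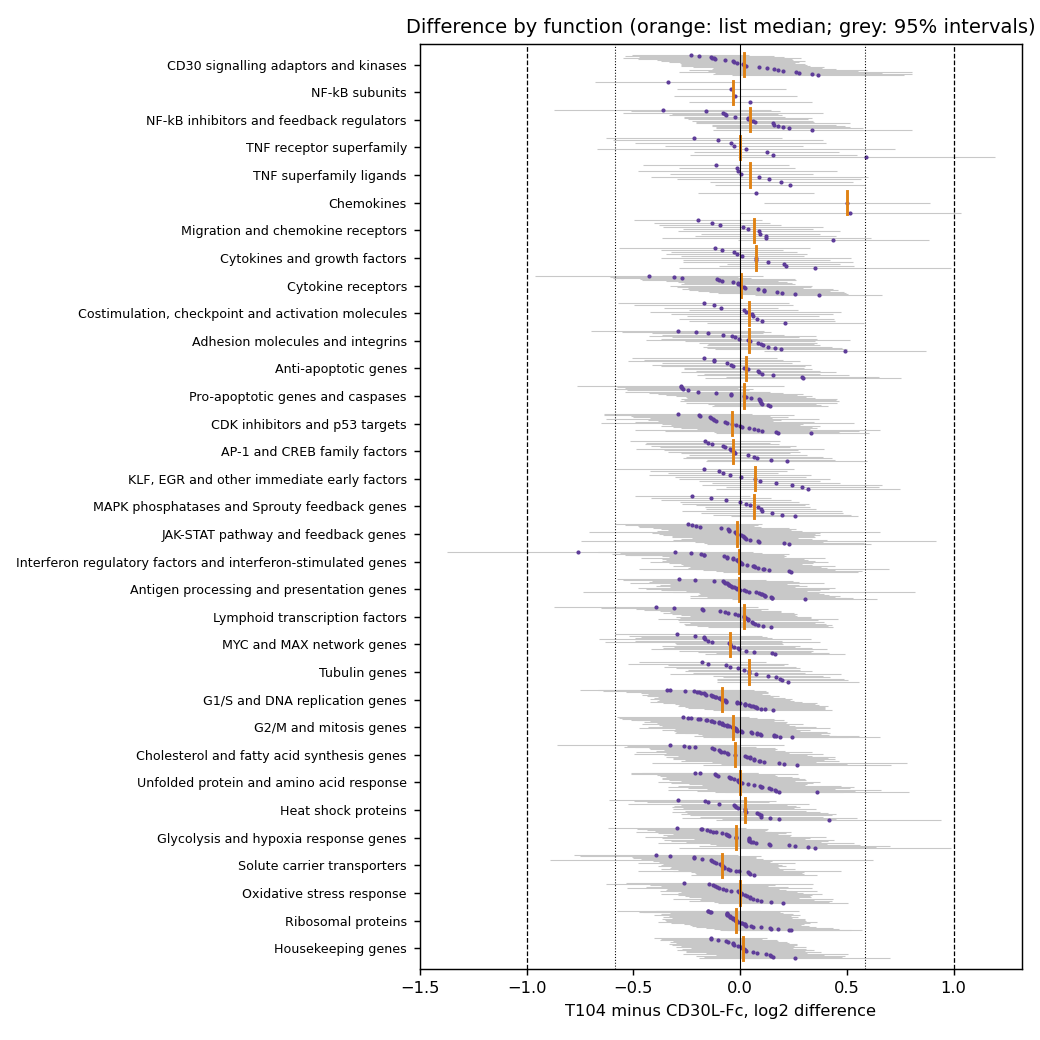
Difference of every member on 33 function lists, T104 minus CD30L-Fc in log2, with the 95% interval in grey, the list median in orange, and 1.5-fold and 2-fold as dotted and dashed lines. Medians of 32 lists lie within 0.1 of 0, that of the 3 chemokines at 0.50, and intervals of TNFRSF4, CCL17 and IFIT2 cross a 2-fold line.

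Of 21 anti-apoptotic genes 14 were members, and 5 rose after each agent. CFLAR, the caspase-8 inhibitor c-FLIP, read 8.86 and 9.35 in untreated cells, 11.66 and 11.47 after CD30L-Fc and 11.74 and 11.70 after T104, a difference of 0.15 from -0.20 to 0.51. BCL2L1, which encodes BCL-XL, read 11.51 and 11.55, then 12.92 and 13.07 after CD30L-Fc and 13.07 and 12.96 after T104. These arrays overlapped, and the difference was 0.02 from -0.26 to 0.30.

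Pro-apoptotic genes and caspases gave 19 members of 33, of which 2 rose after each agent. HTRA2, a mitochondrial protease released in apoptosis, rose by 1.20 after T104 and by 1.45 after CD30L-Fc (limma, adjusted p = 0.00014 and 3.3e-05), with a difference of -0.25 from -0.53 to 0.04 and, without T104 replicate 2, of -0.15. A second HTRA2 probe had the opposite sign, 0.22 from -0.16 to 0.61. TRADD, the death domain adaptor of TNFR1, rose by 0.71 and 0.82 (limma, adjusted p = 0.0087 and 0.0038), and the T104 call was lost without T104 replicate 2 (adjusted p = 0.081) or untreated replicate 1 (adjusted p = 0.064). The median over this list was 0.02 and the farthest limit 1.70-fold.

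CDK inhibitors and p53 targets gave 21 members of 34 with a median of -0.04, and 2 rose after each agent. CDKN1A, the CDK inhibitor p21, read 12.14 and 12.51 in untreated cells, 13.62 and 13.41 after CD30L-Fc and 13.43 and 13.60 after T104. Its difference was -0.00, from -0.37 to 0.37. MDM2, the ubiquitin ligase of p53, lay near the detection limit and was higher after T104 by 0.33, from 0.06 to 0.60, with neither agent called against untreated. MDM2 was detected on only 1 of the 2 CD30L-Fc arrays, so it was a member only through T104, and this choice favoured its direction.

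Of 38 measured genes of G1/S and DNA replication, 2 rose after T104 and 3 after CD30L-Fc and none fell. Of all probes tested 5.36% and 4.95% rose. The median difference was -0.08, with 12 of 38 higher after T104. It was -0.13 without CD30L-Fc replicate 1 or under median scaling and -0.03 without CD30L-Fc replicate 2. Under median scaling the median over all genes was -0.07. The farthest limit was 1.68-fold for POLA1, the catalytic subunit of DNA polymerase alpha. All 41 G2/M and mitosis genes listed were members, none was called against untreated after either agent, and 40 of the intervals lay within 1.5-fold. Their median was -0.03. MYC and MAX network genes gave 17 of 24 with a median of -0.05, and MXD1, a MYC antagonist, lay lower after T104, with a difference of -0.29 from -0.59 to -0.00.

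Early response factors were next. Of the AP-1 and CREB family 14 of 23 were members and 4 rose after each agent, with a median difference of -0.04. ATF3, a stress-inducible member, rose by 1.07 after T104 and by 1.03 after CD30L-Fc (limma, adjusted p = 0.00025 and 0.00036), with an interval from -0.24 to 0.31. KLF, EGR and other immediate early factors gave 11 of 26, of which 4 rose after each agent, and a median of 0.07. KLF6, a zinc-finger factor, rose by 1.87 and 1.62 (limma, adjusted p = 9.4e-05 and 0.00029), with a difference of 0.24 from -0.18 to 0.67.

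MAPK phosphatases and Sprouty genes, which damp MAP kinase signals, gave 12 of 25, all within 1.5-fold. DUSP1, the first of these phosphatases, read 11.16 and 11.17 in untreated cells, 12.54 and 12.34 after CD30L-Fc and 12.62 and 12.31 after T104. The treated arrays overlapped, with a difference of 0.03 from -0.27 to 0.32. DUSP5, a nuclear ERK phosphatase, read 11.97 and 12.16 after CD30L-Fc and 11.83 and 11.86 after T104. These did not overlap, and the difference of -0.22, from -0.49 to 0.04, did not pass.

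The JAK-STAT list gave 21 of 26 with a median of -0.01, and 5 rose and 1 fell after each agent. STAT5A, a signal transducer of IL-2 family cytokines, read 11.75 and 11.46 in untreated cells, 12.95 and 13.34 after CD30L-Fc and 13.14 and 13.25 after T104. The T104 arrays lay inside the span of the CD30L-Fc arrays, and the difference was 0.05 from -0.31 to 0.41. TYK2, a JAK family kinase, rose by 0.99 and 0.97 (limma, adjusted p = 0.0016 and 0.0019).

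Interferon regulatory factors and interferon-stimulated genes gave 28 of 44, a median of -0.01 and 24 intervals within 1.5-fold. IFIH1, the RNA sensor MDA5, read 8.96 and 8.50 in untreated cells, 10.55 and 10.61 after CD30L-Fc and 10.55 and 10.62 after T104, a difference of 0.00 from -0.33 to 0.34. IRF1, a factor of the interferon response, rose by 1.37 after T104 and by 1.30 after CD30L-Fc (limma, adjusted p = 8.5e-05 and 0.00014).

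IFIT2, an antiviral RNA-binding protein, went the other way. It read 7.77 and 7.01 after CD30L-Fc and 6.84 and 6.42 after T104, with 6.77 and 6.84 in untreated cells where it was not detected. Its 6.42 on T104 replicate 2 lay below the lowest detected signal of that array, 7.06. IFIT2 was therefore a member only through CD30L-Fc, and this choice favoured the direction of its difference. The treatments did not overlap, the difference was -0.76 from -1.37 to -0.15, and without CD30L-Fc replicate 1 it was -0.38. The limit of 2.59-fold was the farthest on any function list.

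Antigen processing and presentation genes gave 30 of 35, with a median of -0.01, 28 intervals within 1.5-fold and 4 genes called higher after each agent. TAPBP, the tapasin chaperone of MHC class I, read 13.15 and 13.10 after CD30L-Fc and 12.79 and 13.04 after T104, without overlap and with a difference of -0.21 from -0.55 to 0.12 that was -0.09 without T104 replicate 1. The other TAPBP probes gave -0.16 and 0.09. Lymphoid transcription factors gave 20 of 45 and a median of 0.02. TCF4, a basic helix-loop-helix factor, had the largest difference of these at -0.39, from -0.87 to 0.08, and -0.23 without CD30L-Fc replicate 2.

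Metabolic and stress functions set the scale for genes less tied to the receptor. Cholesterol and fatty acid synthesis genes gave 25 of 32 with a median of -0.02, and 3 rose after each agent. INSIG1, which retains the sterol sensor in the endoplasmic reticulum, rose by 1.49 after T104 and by 1.44 after CD30L-Fc (limma, adjusted p = 0.00016 and 0.00022), and its interval ran from -0.31 to 0.41. HMGCS1, an early enzyme of sterol synthesis, rose by 0.73 and 0.94 (limma, adjusted p = 0.0039 and 0.00077).

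The unfolded protein and amino acid response gave 25 of 31, a median of -0.00 and 5 genes called higher after each agent. DDIT4, an inhibitor of mTORC1, rose by 0.89 after T104 and by 0.99 after CD30L-Fc (limma, adjusted p = 0.00082 and 0.00045). Heat shock proteins gave 18 of 22 and a median of 0.02, and the oxidative stress response 22 of 29 and a median of -0.00. SQSTM1, the autophagy receptor p62, rose by 0.98 and 0.99 (limma, adjusted p = 0.0031 and 0.0033).

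Glycolysis and hypoxia genes gave 27 of 34 with a median of -0.02, and ANKRD37, a hypoxia-induced ankyrin repeat protein, fell by 0.85 after T104 and by 0.79 after CD30L-Fc (limma, adjusted p = 0.0022 and 0.0041). Solute carrier transporters had a median of -0.09, with 4 of 22 higher after T104, and 19 intervals within 1.5-fold. Without CD30L-Fc replicate 2 the median of that list was -0.15 and without CD30L-Fc replicate 1 it was -0.06. SLC7A11, the cystine transporter, had its largest difference at -0.39, from -0.78 to -0.01, and -0.17 without T104 replicate 1. SLC20A1, a phosphate transporter, rose by 1.06 and 1.12 (limma, adjusted p = 0.00064 and 0.00049).

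Tubulin genes held one strong responder. TUBB2A, a beta tubulin, read 8.00 and 8.15 in untreated cells, 10.75 and 10.69 after CD30L-Fc and 10.80 and 10.90 after T104, a difference of 0.13 from -0.13 to 0.39. All 14 measured tubulins lay within 1.5-fold, as did all 34 measured ribosomal proteins, which were not called against untreated after either agent and had a median of -0.02. Housekeeping genes gave 22 of 25 with a median of 0.01, 21 of them within 1.5-fold.

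Read over all functions, 30 of the 33 lists had every measured interval within 2-fold, and 4 lists had every one within 1.5-fold. The median of 32 lists was within 0.1 of 0 in log2. Among the 20 genes with the largest PW30 rise, all 20 rose after each agent, 16 had the higher mean after T104, and 15 intervals lay within 1.5-fold and 20 within 2-fold. Their differences ran from -0.04 for RELB to 0.50 for CXCL10.

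**Figure D5:**
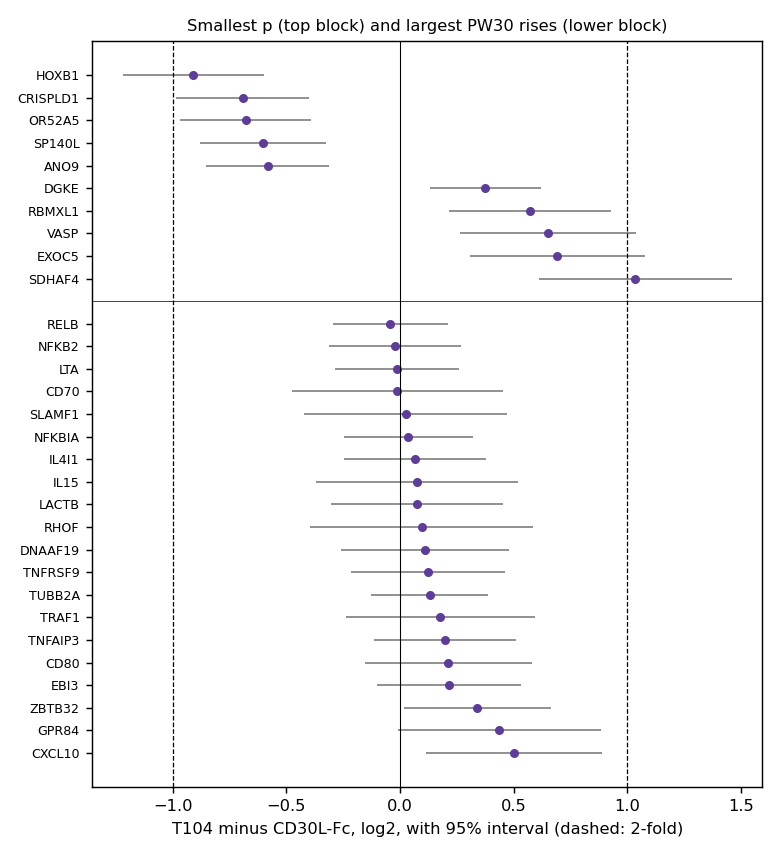
Difference T104 minus CD30L-Fc in log2 with its 95% interval for the 5 genes of smallest p in each direction (top block) and the 20 genes with the largest PW30 rise over untreated (lower block), with 2-fold lines dashed. All intervals of the lower block stay within 2-fold, and those of HOXB1, VASP, EXOC5 and SDHAF4 in the upper block cross a 2-fold line.

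The genes with the smallest p in each direction belonged to none of the NF-kB lists. HOXB1, a homeobox factor of hindbrain patterning, read 7.76 and 7.78 in untreated cells, 8.00 and 8.10 after CD30L-Fc and 7.13 and 7.15 after T104. T104 lay below untreated and CD30L-Fc above, with a difference of -0.91 from -1.22 to -0.60 (limma, adjusted p = 0.26). SDHAF4, an assembly factor of mitochondrial complex II, read 8.56 and 8.39 in untreated cells, 7.83 and 7.16 after CD30L-Fc and 8.48 and 8.57 after T104. The T104 arrays lay with the untreated ones, and the difference was 1.04 from 0.61 to 1.46 (limma, adjusted p = 0.55). Without CD30L-Fc replicate 2 the SDHAF4 difference was 0.70.

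On the T104 side EXOC5, a subunit of the exocyst, differed by 0.69, from 0.31 to 1.08, VASP, a regulator of actin growth, by 0.65, from 0.26 to 1.04, RBMXL1, an RNA-binding protein, by 0.57, from 0.21 to 0.93, and DGKE, a diacylglycerol kinase, by 0.38, from 0.13 to 0.62. All had a limma adjusted p of 1. EXOC5 was detected on only 1 of the 2 CD30L-Fc arrays, so it was a member only through T104, and this choice favoured its direction. On the CD30L-Fc side CRISPLD1, OR52A5, SP140L and ANO9 were not detected on either T104 array. These 4 were members only through CD30L-Fc, which fixed their direction. Their differences are bounds, at least 1.27-fold for CRISPLD1, 1.21-fold for OR52A5, 1.03-fold for SP140L and 1.14-fold for ANO9 in favour of CD30L-Fc.

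Some genes are read by more than 1 probe. Of 1727 such genes the probes of a gene differed in their T104 minus CD30L-Fc value by a median of 0.15 and by 0.51 at the 95th percentile, and for 10 genes the intervals of 2 probes did not overlap. The 2 TRAF1 probes gave 0.18 and 0.04, the 2 IL7R probes -0.01 and 0.21, and the 2 CDKN1A probes -0.00 and 0.15. The label of the cells was read against markers. Of 12 genes listed for Hodgkin and Reed-Sternberg cells 10 were detected on both arrays of each agent. Detected members of the other lists were CD2, CD247, CD4 and LAT for T cells, GZMB and NKG7 for cytotoxic granules, BLK and FCER2 for B cells, CD68 and CSF1R for monocytes, and ACTA2 for fibroblasts and epithelium. CD68 was higher after T104 by 0.61 and CSF1R by 0.26. Both intervals left out 0, that of CD68 reached 2.10-fold, and neither gene was called. The other 12 genes of the monocyte list, CD14 and LYZ among them, were not detected on both arrays of either agent. Summed linear signals over all 14 genes of that list, detected or not, were 1525 and 1596 after CD30L-Fc. After T104 they were 1796 and 1895. The part of this shift in the results was not tested.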

How the data were processed

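Gene expression was measured on 12 Illumina HumanHT-12 v3 arrays. The authors deposited a table of signal intensity for 48780 probes before normalisation, with a detection p-value for each probe, per the file headers, and a processed table of intensity. GenomeStudio is named in the submitters' processing notes and BeadStudio in the series text. The sources used here give no version.

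Intensity before normalisation was background-corrected with the normexp model on moments inferred from the deposited detection p-values, given an offset of 16, quantile-normalised and log2-transformed (limma 3.58.1, R 4.3.3). A model of 6 group means was fitted over all 12 arrays to the 11949 probes detected on both arrays of at least 1 group, with lmFit and eBayes (11.4 total degrees of freedom). Contrasts were two-sided, with Benjamini-Hochberg adjustment over those probes, and calls were made at an adjusted p below 0.05. The number of arrays limits the precision, and an exact permutation test of 2 against 2 cannot go below p = 0.333. The procedure was tested on simulated data.

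The annotation linked 28082 probes to 1 gene, 13 to several and 20685 to none. Symbols of 28043 were updated through Entrez identifiers in the RefSeq table of GRCh38.p14, and 39 were kept. RefSeq promoters matched 6426 of the 7696 member genes.

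The genes named were drawn from a rule that takes the 5 genes of smallest p in each direction, per list the 3 largest PW30 changes that were called and the largest T104 minus CD30L-Fc difference, TNFRSF8, and the NF-kB subunits and inhibitors, and not all genes the rule takes are described. The members and the 33 function and 6 marker lists were chosen with earlier results of these data known. Duplicates are biological per the series text. Replicate numbers were not used as pairs in the fit reported. Deviations of same-numbered CD30L-Fc and T104 arrays correlated at 0.026 and no pair of groups passed 0.1. These correlations show no marked shared shift, but cannot tell whether same-numbered cultures were prepared together. Alternatives covered scaling, background, offset, the authors' processed intensity, filters, the arrays fitted, the variance prior, probe choice, a replicate block and each array left out.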

Additional observations from a re-analysis of the deposited data

Results flagged for a closer look

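HOXB1 stood out because both T104 arrays lay below both untreated arrays and both CD30L-Fc arrays lay above them. Its T104 minus CD30L-Fc difference was -0.91. The difference was tested and did not pass (limma, adjusted p = 0.26), and T104 against untreated, called at -0.62 (limma, adjusted p = 0.019), was not called when either T104 array (adjusted p of 0.11 and 0.090) or either untreated array (0.066 and 0.076) was left out. Among all members 44 genes had T104 below and CD30L-Fc above untreated in this way, and 26 the opposite.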

How the results depend on the processing

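No probe was called under 15 of the 18 alternatives. The exception was the RER1 probe (-1.11, outside the members and detected on 1 of the 4 arrays), called under median scaling (1 probe, adjusted p = 0.044) and without either PW30 array (adjusted p = 0.047), so arrays left out gave 0 to 1 probes. Its adjusted p in the fit reported was 0.054. With the replicate block 0 probes were called (smallest adjusted p 0.152), 7634 genes stayed within 2-fold and 6424 within 1.5-fold. Over the alternatives 7379 to 7696 genes lay within 2-fold and 4794 to 7615 within 1.5-fold, the lower of each with fewer genes or with 1 of the compared arrays left out. The median over the genes lowered by PW30 was -0.138 under median scaling, where all genes shifted to -0.07, and -0.0790 to 0.00736 with 1 array left out, the highest without CD30L-Fc replicate 1. The median over the raised genes was 0.02 to 0.09. The largest list median, in size and over the 31 lists with at least 5 measured genes, was 0.0864 (solute carriers, below 0), 0.139 under median scaling and 0.0864 to 0.184 with 1 array left out. The list was taken anew each time. The 0.184 was of cytokines and growth factors, above 0, and solute carriers ran from -0.147 to -0.060. All other values of these stayed within 1.5 times for a count, and for a median within the pooled duplicate SD of array medians. By that limit the 0.02 of the raised genes under median scaling counted as unchanged. Of the 128 named genes none was called between the agents under any alternative. Against untreated 62 of 78 calls after T104 and 59 of 79 after CD30L-Fc held throughout, and none reversed. The cause was not tested. A BeadChip or position block was not run, as no header gives either. Of the 67 genes not held within 2-fold, 66 were in the dimmest quartile.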
